A study of Mus musculus with 8 samples.

Results

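Transcripts of the immunoglobulin heavy chain locus were examined in lymphoid progenitors of C57BL/6 mouse bone marrow. The members were all genes listed with a symbol starting Ighv, Ighd, Ighj, Ighm, Ighg, Igha or Ighe, with Ighmbp2, which lies elsewhere, left out. They came to 139 of the 39179 genes listed, namely 7 constant region genes, 4 J segments, 20 D segments and 108 V genes. GENCODE vM21 holds 217 symbols that meet the same rule, and the other 78, among them the delta constant region gene Ighd, were not analysed here.

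The study compared 2 groups with 4 RNA libraries each. The cCLP group was common lymphoid progenitors kept in culture for 2 months on OP9, a mouse stromal cell line, with Flt3L and a low dose of IL-7. The ex vivo CLP group was taken freshly from bone marrow. Both were sorted as lineage-negative cells positive for Flk2, IL7R and CD27 and negative for Ly6d, and no genetic change is given for either. The labels name no animal, culture or day for a library, so p-values measure only the spread between libraries, which may be technical.

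All values are the whole-number scores the authors deposited for each gene, and a "scaled value" is such a score multiplied by a factor that brings the 8 libraries to a common level. The scores vary less between similar libraries than read counts would, so they carry no known depth, and a gene at 0 is described as listed at 0. The scores of a library summed to between 378594 and 704305, and 11371 to 12779 genes were above 0. The library labelled cCLP 1 ranked genes more like ex vivo CLP 1, 3 and 4 (Spearman correlation across genes 0.973 to 0.985) than like cCLP 2 to 4 (0.892 to 0.897), with the heavy chain genes left out. The library labelled ex vivo CLP 2 lay with cCLP 2 to 4 (0.981 to 0.989) rather than with ex vivo CLP 1, 3 and 4 (0.871 to 0.899). No library was moved to another group. Each result is given for the 8 libraries as labelled and for the 6 libraries without those 2, and the p-values of the second comparison hold only given that choice. Of the sort markers, Flt3, which encodes Flk2, was at 227, 260, 283 and 333 in cCLP 1 to 4 and at 212, 239, 171 and 288 in ex vivo CLP 1 to 4. Il7r was at 28, 213, 204 and 256 in cCLP and at 61, 193, 14 and 24 in ex vivo CLP, so cCLP 1 and ex vivo CLP 2 were on the other group's side for this gene too. Cd27 was at 105, 68, 87 and 87 in cCLP and at 85, 56, 60 and 113 in ex vivo CLP. Ly6d, the marker sorted against, was at 22, 1, 1 and 1 in cCLP and at 28, 0, 28 and 41 in ex vivo CLP, with its RNA thus present where Il7r was low.

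A heavy chain gene is assembled during B cell development by joining a D segment to a J segment and then a V gene to the joined DJ, steps carried out by the RAG1 and RAG2 recombinase. Unrearranged segments are transcribed before and during this process: the region from the J segments through the mu constant gene Ighm gives sterile transcripts in lymphoid progenitors, and V genes give germline transcripts as their part of the locus becomes accessible. The V genes lie in a long array upstream of the D and J segments, with the large Ighv1 (J558) family at its far end, and recombination of those distal genes is known to depend on IL-7 receptor signalling and on contraction of the locus. After activation, a B cell can switch from Ighm to a downstream constant gene such as an Ighg gene or Igha. Summed over a gene, these values do not separate germline transcripts from rearranged ones.

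The members span chr12:113254830-116000461 (GRCm38), or 2.75 Mb, with Igha at the low end and the distal V genes at the high end. The 4 J segments are shown because every rearranged heavy chain must carry 1 of them, and because their shortness bears on their values. They are read from the minus strand in GENCODE vM21 transcripts, 5′ to 3′. Capitals mark a match to TGGGG followed by any 4 bases, GG and any base, searched on this strand, which encodes the tryptophan-glycine-X-glycine stretch shared by heavy chain J segments.
Ighj1, chr12:113429781-113429833: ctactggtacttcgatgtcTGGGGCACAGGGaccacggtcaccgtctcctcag
Ighj2, chr12:113429468-113429515: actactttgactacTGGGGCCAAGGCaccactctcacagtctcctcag
Ighj3, chr12:113429085-113429132: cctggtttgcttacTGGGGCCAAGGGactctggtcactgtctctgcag
Ighj4, chr12:113428514-113428567: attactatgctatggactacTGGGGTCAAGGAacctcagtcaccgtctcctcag

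The V genes on which the results turn are close relatives, which bears on how well reads can be assigned to each. The last 100 bases of the annotated V exon, where framework region 3 ends and the gene is cut for joining, are given for the 5 Ighv1 genes that were tested and for Ighv2-3, also from the minus strand. In the lines for Ighv1-74, Ighv1-69, Ighv1-63 and Ighv1-56, capitals mark bases that differ from Ighv1-77. In the line for Ighv2-3, a gene of another family close to the D segments, capitals mark the codon of the conserved cysteine near the end of the V exon.
Ighv1-77, chr12:115861867-115861966: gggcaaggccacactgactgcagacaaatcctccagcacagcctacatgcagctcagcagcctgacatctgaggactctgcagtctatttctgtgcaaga
Ighv1-74, chr12:115802648-115802747: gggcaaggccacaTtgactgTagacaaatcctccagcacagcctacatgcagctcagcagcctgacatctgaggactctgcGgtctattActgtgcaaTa
Ighv1-69, chr12:115623161-115623260: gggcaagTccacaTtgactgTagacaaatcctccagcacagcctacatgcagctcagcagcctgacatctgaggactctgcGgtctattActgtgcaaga
Ighv1-63, chr12:115495625-115495724: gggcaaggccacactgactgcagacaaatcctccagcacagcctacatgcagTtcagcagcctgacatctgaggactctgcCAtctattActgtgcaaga
Ighv1-56, chr12:115242802-115242901: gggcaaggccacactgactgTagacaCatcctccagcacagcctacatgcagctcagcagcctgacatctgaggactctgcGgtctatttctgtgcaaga
Ighv2-3, chr12:113611187-113611286: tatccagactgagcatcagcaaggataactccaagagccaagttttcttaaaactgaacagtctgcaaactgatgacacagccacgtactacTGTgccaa

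Over these 100 bases Ighv1-74 and Ighv1-69 each differ from Ighv1-77 at 5 positions, Ighv1-63 at 4 and Ighv1-56 at 3. Over the whole annotated transcript the genes are easier to tell apart: of all 75-base windows, the length of a read, 90.4% of those in Ighv1-77 occur in no other annotated gene. The share is 89.5% for Ighv1-74, 80.5% for Ighv1-69, 86.6% for Ighv1-63, 88.1% for Ighv1-56 and 92.3% for Ighv2-3. How reads matching several genes were handled is not given in the sources used here, so the value of a single V gene is uncertain to that extent.

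Of the 139 members, 64 were above 0 in at least 1 library and 75 were listed at 0 in all 8. Those above 0 were 4 constant genes and 60 V genes, and 21 members reached a value of 5 in some library. Ighm alone held 96.3, 80.4, 76.1 and 82.6% of the summed heavy chain values in cCLP 1 to 4, and 95.2, 86.7, 90.5 and 92.2% in ex vivo CLP 1 to 4. The rest was nearly all V gene signal, apart from a small amount of Igha and Ighg transcripts in ex vivo CLP 3 and 4.

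**Figure D1:**
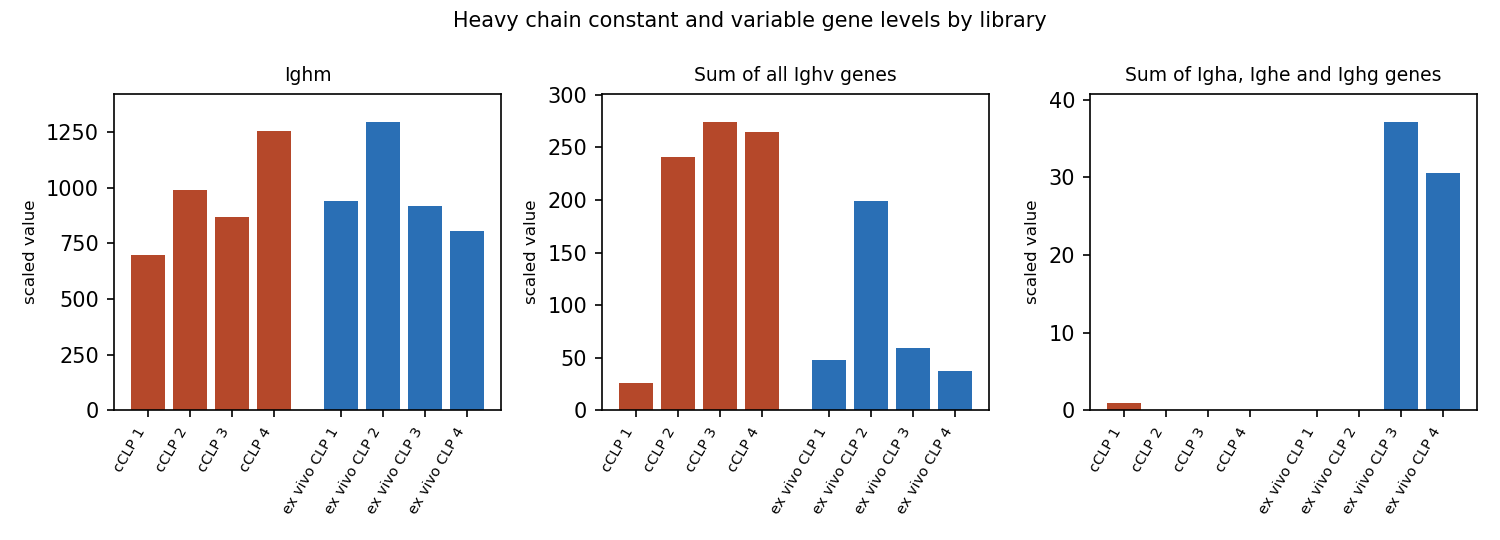
Scaled values by library for Ighm (left), the sum of the 108 V genes (middle) and the sum of the Igha, Ighe and Ighg genes (right); each bar is 1 library, with cCLP to the left of ex vivo CLP. Ighm is high in all 8 libraries, the V sum is between 241.12 and 273.78 in cCLP 2 to 4 and 199.04 in ex vivo CLP 2 but at most 59.34 in the other 4 libraries, and the other constant genes show only in ex vivo CLP 3 and 4 apart from a value of 0.96 in cCLP 1.

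Ighm (chr12:113418558-113422730, minus strand), the mu constant region gene, was the dominant heavy chain transcript in every library of both groups. Its deposited values were 728, 938, 905 and 1476 in cCLP 1 to 4 and 769, 1170, 741 and 1109 in ex vivo CLP 1 to 4. The groups overlapped, also after scaling, where the values ran from 696.3 to 1253 in cCLP and from 805.8 to 1293.8 in ex vivo CLP. Among all genes of a library ordered by value, Ighm stood 80th, 55th, 74th and 51st in cCLP 1 to 4 and 60th, 46th, 76th and 76th in ex vivo CLP 1 to 4.

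As labelled, the scaled value of Ighm averaged 951.6 ± 233.9 in cCLP and 989.6 ± 211.3 in ex vivo CLP (SD, n = 4 each). The log2 difference of cCLP minus ex vivo CLP was -0.07 ± 0.21 (SE), with a 95% interval of -0.54 to 0.41 and an adjusted p of 0.865 (limma, Benjamini-Hochberg over all genes tested). Without cCLP 1 and ex vivo CLP 2 the means were 1037 ± 196.5 in cCLP and 888.2 ± 72.56 in ex vivo CLP (SD, n = 3 each), a log2 difference of 0.21 ± 0.16 with an interval of -0.16 to 0.58 and an adjusted p of 0.334 by limma. Neither comparison found a difference beyond the spread between libraries. The intervals contain 0, and a p that misses the threshold does not show that the levels were equal. Bulk libraries cannot tell a change in RNA per cell from a change in the share of cells that make the transcript.

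The 5 genes outside the locus whose log2 scaled value followed that of Ighm most closely over the 8 libraries were Cdk13 (Pearson r = 0.978), Rtf2 (0.957), Cdc16 (0.952), Ikzf1 (0.949) and Itch (0.948). All 8 libraries share 1 scaling factor each across these genes. The 5 are the highest of a search over the tested genes, 6486 with the 4 members, so the correlations are a description. Any link of these genes to Ighm was not tested. Ikzf1 encodes Ikaros, a transcription factor needed for lymphoid development and for V(D)J joining at this locus, and Cdk13 encodes a kinase that acts on RNA polymerase II.

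The other constant genes were at or near 0 except in 2 ex vivo CLP libraries. Igha (chr12:113254830-113260236), the constant region of IgA, was at 1, 0, 0 and 0 in cCLP 1 to 4 and at 0, 0, 23 and 34 in ex vivo CLP 1 to 4. Ighg2b (chr12:113302965-113307933), an IgG constant region, was at 0 in all 4 cCLP libraries and at 0, 0, 5 and 5 in ex vivo CLP. Ighg1 (chr12:113325240-113330523) was at 0 in all cCLP libraries and at 0, 0, 2 and 3 in ex vivo CLP. Thus ex vivo CLP 3 and 4 carried all 3 switched isotypes, ex vivo CLP 1 and 2 carried none, and the ex vivo CLP group overlapped cCLP. Ighe, Ighg2c and Ighg3, the constant regions of IgE and of other IgG subclasses, were listed at 0 in all 8 libraries. None of the 6 genes passed the filter on low values, so none was tested.

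The same 2 ex vivo CLP libraries were also highest for some, but not all, other transcripts that antibody-secreting cells make. Igkc, the kappa light chain constant region, was at 2, 0, 0 and 0 in cCLP and at 2, 0, 22 and 37 in ex vivo CLP. Jchain, which encodes the chain that joins IgA or IgM units, was at 0, 1, 1 and 1 in cCLP and at 1, 1, 5 and 7 in ex vivo CLP. Both were highest in ex vivo CLP 3 and 4, as Igha was. In all, 6 heavy chain members were above 0 in both of these libraries and in no other, namely Ighg1, Ighg2b, Ighv1-22, Ighv1-26, Ighv1-39 and Ighv6-3. Among the light chain genes 8 kappa V genes showed the same pattern, and no lambda gene did. Ex vivo CLP 3 and 4 had 12044 and 12779 genes above 0, and the share of all genes with this pattern was not counted. These counts therefore cannot be called particular to immunoglobulin genes. Other markers moved in these libraries as well. The summed values of 7 myeloid markers were 1466, 251, 294 and 349 in cCLP and 824, 150, 2017 and 3254 in ex vivo CLP, and those of 4 erythroid markers were 13, 5, 7 and 5 in cCLP and 6, 3, 31 and 42 in ex vivo CLP. Over the list of 14 B and plasma cell markers the sums were 129, 220, 245 and 306 in cCLP and 132, 294, 136 and 210 in ex vivo CLP. In that list Ms4a1, which marks mature B cells, did not exceed 1 in any library, and Prdm1, which defines plasma cells, was listed at 0 in all 8. Xbp1, a secretory regulator that other cells also express, was at 51, 23, 24 and 31 in cCLP and at 44, 20, 64 and 99 in ex vivo CLP. Mzb1 and Sdc1, also on that list, did not peak in ex vivo CLP 3 and 4. Mzb1 was at 1 and 2 there, and Sdc1 at 30 and 49. In cCLP 2 to 4 Mzb1 was at 63 to 74 and Sdc1 at 116 to 168. The part that other cells had in the Igha and Ighg values was not tested.

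**Figure D2:**
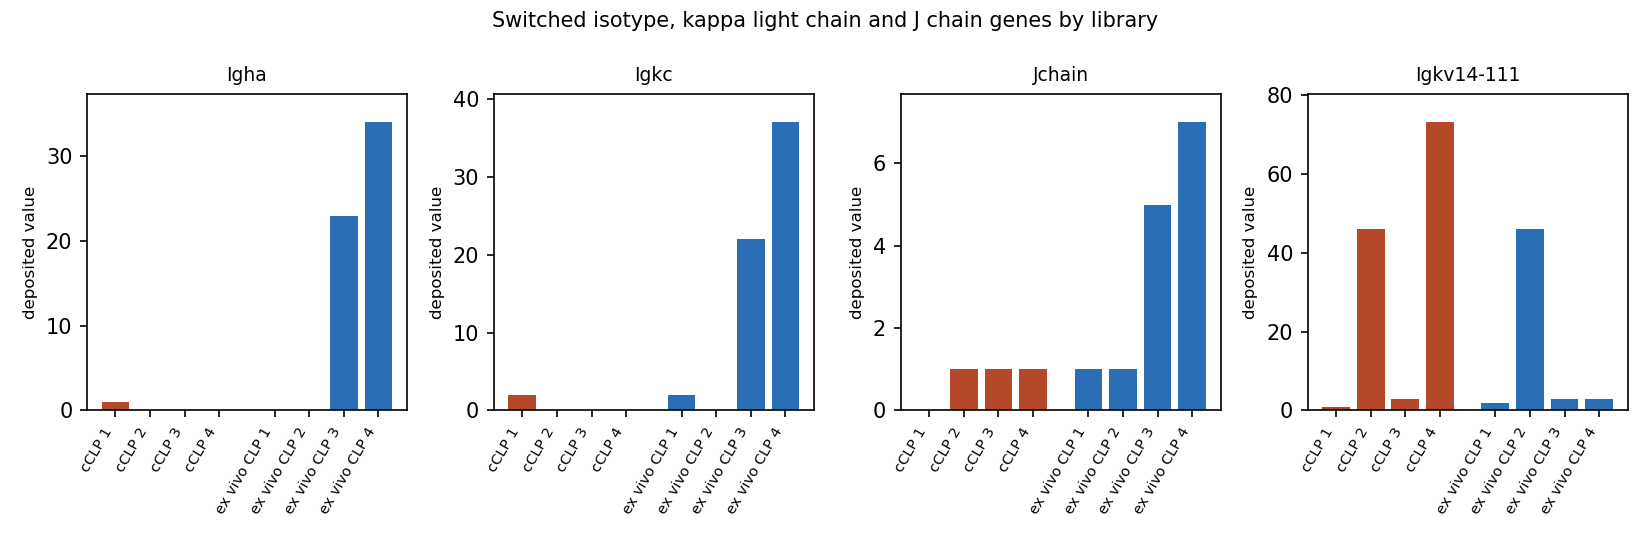
Deposited values by library of Igha, Igkc, Jchain and the kappa V gene Igkv14-111, with cCLP to the left of ex vivo CLP and 1 bar per library. Igha, Igkc and Jchain peak in ex vivo CLP 3 and 4 at 34, 37 and 7, whereas Igkv14-111 is high in cCLP 2, cCLP 4 and ex vivo CLP 2 and at most 3 elsewhere.

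The 4 J segments and the 20 D segments were listed at 0 in all 8 libraries. The J segments printed above are 48 to 54 bases long and the D segments 10 to 29 bases, against a read length of 75 bases and V exons of 278 to 480 bases. The gene entry of Ighj2 adds a noncoding transcript beside the segment and so covers 100 bases. A listing at 0 for segments shorter than a read is a weak measure of transcription through them. Whether the authors' counting could assign a read that spans a joined segment is not given in the sources used here.

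The V genes carried the contrast between libraries. The number of the 108 V genes above 0 was 6, 31, 40 and 38 in cCLP 1 to 4 and 13, 39, 20 and 19 in ex vivo CLP 1 to 4. Their summed scaled values were 25.82, 241.12, 273.78 and 264.87 in cCLP and 47.81, 199.04, 59.34 and 37.78 in ex vivo CLP. On both measures cCLP 1 was the lowest of its group and ex vivo CLP 2 the highest of its own, and the groups as labelled overlapped. The V sum averaged 201.4 ± 117.9 in cCLP and 86 ± 75.9 in ex vivo CLP (SD, n = 4 each). Without those 2 libraries it averaged 259.9 ± 16.9 in cCLP and 48.3 ± 10.8 in ex vivo CLP (SD, n = 3 each), and the groups did not overlap. A sum over chosen members is given without a test. Some marker lists of other cells also differed between libraries, and they did not all follow the V sum. The sums of the 7 myeloid markers, given above, were lower in cCLP 2 to 4 than in ex vivo CLP 1, 3 and 4, with cCLP 1 and ex vivo CLP 2 each on the side of the other group. Among the B and plasma cell markers, Mzb1, which encodes a chaperone of the secretory pathway, was at 2, 63, 65 and 74 in cCLP and at 3, 97, 1 and 2 in ex vivo CLP, and Sdc1, which encodes syndecan-1, at 36, 116, 139 and 168 in cCLP and 45, 130, 30 and 49 in ex vivo CLP. Both were high in cCLP 2 to 4 and in ex vivo CLP 2, while Ms4a1 was at or near 0 in all 8. Mzb1 and Sdc1 were the 2 called higher of the 4 tested in that list over the 6 libraries. Xbp1 and Cd79b, with log2 differences of -1.43 ± 0.15 and -3.62 ± 0.26 (SE), were the 2 called lower (limma, adjusted p = 0.00014 for Xbp1 and 1.92e-05 for Cd79b). Mzb1 was below 10 in ex vivo CLP 1, 3 and 4 and Cd79b in cCLP 2 to 4, so the filter set their direction. Among all genes tested 20.9% were called higher and 22.2% lower. The 7 plasmacytoid dendritic cell markers summed to 548, 488, 665 and 668 in cCLP and to 402, 324, 676 and 1117 in ex vivo CLP, and over the 6 libraries 2 of the 7, Ccr9 and Cox6a2, were higher in cCLP and 4, Siglech, Bst2, Ly6c2 and Irf8, lower. The filter set the direction of Ccr9, Siglech and Irf8 in the same way. The 6 T cell markers summed to at most 5 in any library, and the 6 stromal markers, which the OP9 cells would bring, were all at 0. The part of a changed mix of cells in the V values was not tested.

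The V genes detected were spread unevenly along the array. The genes were ordered by distance upstream of Ighj1 and divided into 3 sets of 36, namely a proximal set at 144 to 766 kb, a middle set at 793 to 1561 kb and a distal set at 1594 to 2570 kb. In the distal set 30 genes were above 0 in some library and 13 reached a value of 5, against 14 and 2 in the middle set and 16 and 3 in the proximal set. The distal set made up 100, 78.2, 85.3 and 79.5% of the summed V values in cCLP 1 to 4 and 97.4, 58.9, 68.8 and 65.4% in ex vivo CLP 1 to 4. The proximal set made up 0, 19.2, 9.1 and 17.3% in cCLP and 2.6, 32.8, 10.4 and 9.6% in ex vivo CLP. The middle set made up 0, 2.6, 5.6 and 3.2% in cCLP and 0, 8.3, 20.8 and 25% in ex vivo CLP. In ex vivo CLP 3 and 4 this share included Ighv1-22, Ighv1-26, Ighv1-39 and Ighv6-3, named above. Distal genes were thus the main source of V signal in all 8 libraries of both groups, whatever the size of the sum.

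**Figure D3:**
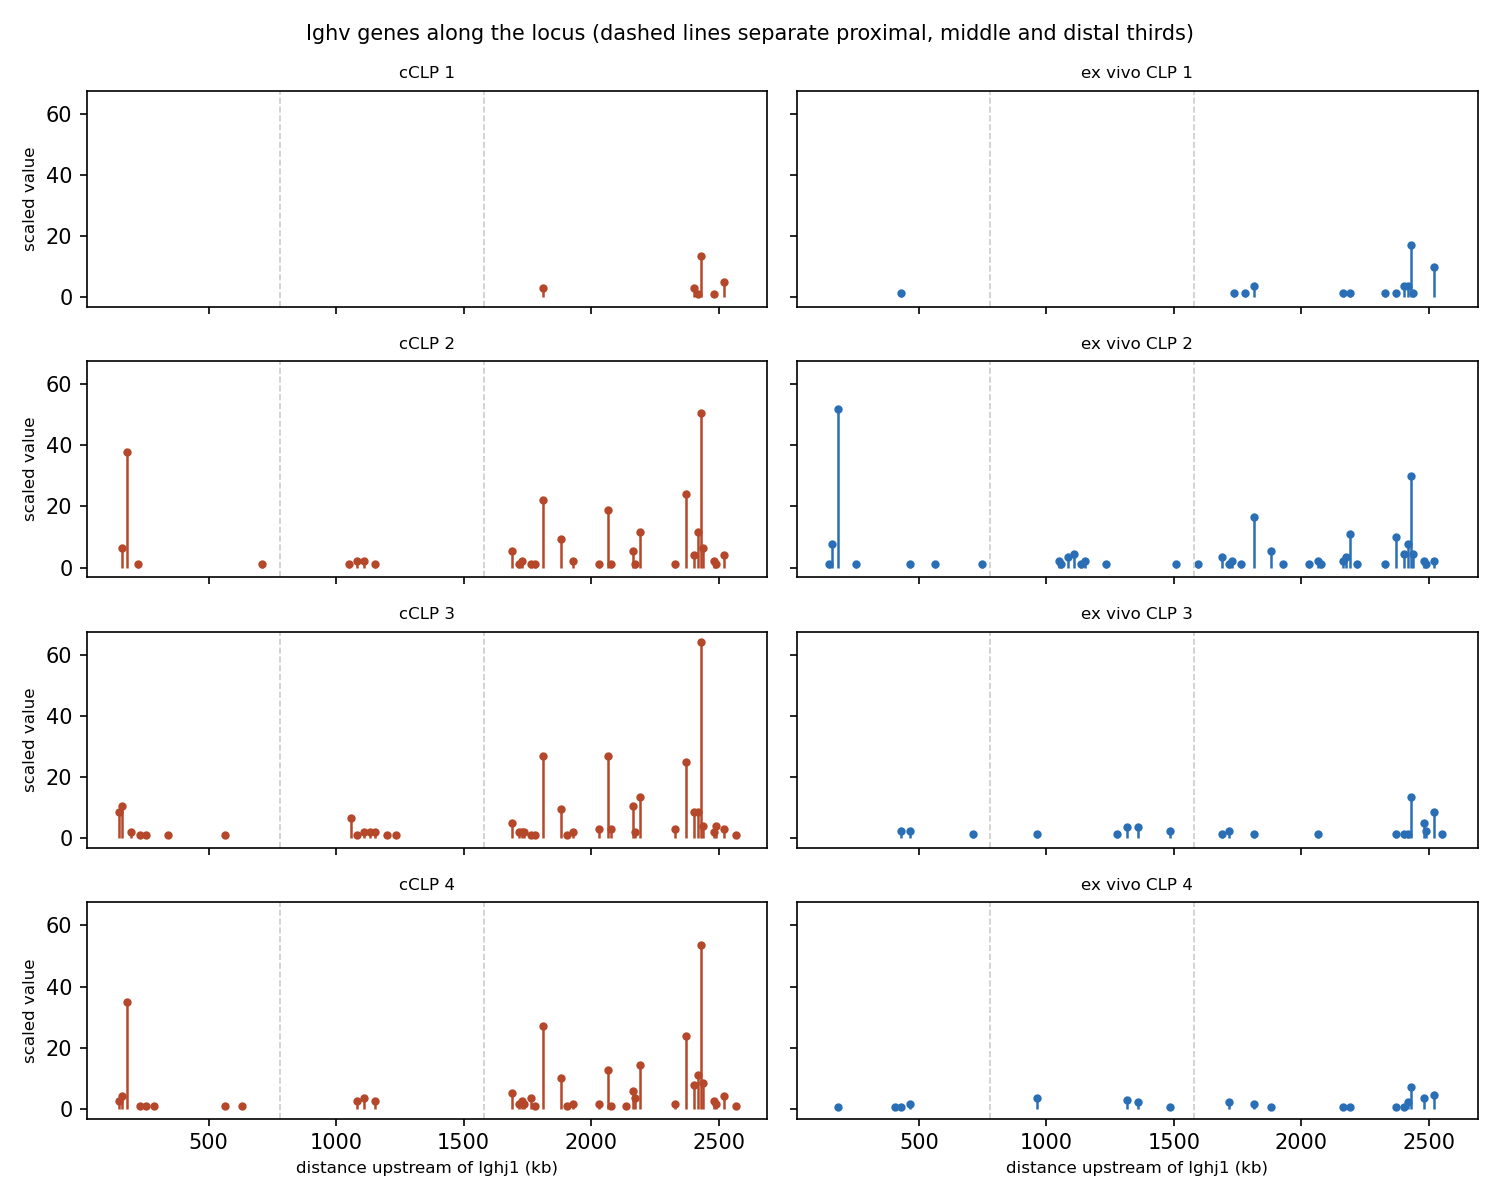
Scaled value of each V gene against its distance upstream of Ighj1 in kb, 1 panel per library with cCLP on the left and ex vivo CLP on the right; dashed lines divide the 3 sets of 36 genes. In cCLP 2 to 4 and in ex vivo CLP 2 many distal genes stand above 0, and in cCLP 2, cCLP 4 and ex vivo CLP 2 a lone proximal gene, Ighv2-3, stands above its neighbours.

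By family, Ighv1 accounted for 37 of the 60 V genes above 0, out of 50 Ighv1 genes listed, and for 14 of the 18 that reached a value of 5. Of the 10 genes of the Ighv2 family 6 were above 0, of the 10 of the Ighv5 family 5 were, and all 5 of the Ighv3 family, which lies between 534 and 892 kb, were listed at 0 in every library. The Ighv1 genes lie between 1057 and 2570 kb, so family and position largely coincide. The share of read-length windows found in no other gene had a median of 91.4% for the 18 V genes that reached 5, of 93.5% for the 42 above 0 but below 5, and of 95.7% for the 48 at 0. By this median, genes at 0 were no less unique in sequence than those detected.

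Ighv1-77 (chr12:115861867-115862355), an Ighv1 gene near the far end of the array, had the highest V value in every library but ex vivo CLP 2, where Ighv2-3 was higher. Its deposited values were 14, 48, 67 and 63 in cCLP 1 to 4 and 14, 27, 11 and 10 in ex vivo CLP 1 to 4. As labelled the groups overlapped through cCLP 1, and the scaled means were 45.44 ± 22.18 in cCLP and 16.97 ± 9.515 in ex vivo CLP (SD, n = 4 each). The log2 difference was 1.32 ± 0.55 (SE), with an adjusted p of 0.484 by limma. Without cCLP 1 and ex vivo CLP 2 the means were 56.13 ± 7.28 in cCLP and 12.68 ± 5.012 in ex vivo CLP (SD, n = 3 each), all cCLP libraries lay above all ex vivo CLP libraries, and the log2 difference was 2.13 ± 0.27 with a 95% interval of 1.51 to 2.75 and an adjusted p of 0.000551 by limma. Per kb of exon, the scaled value of Ighv1-77 was 33 to 158.5 in cCLP and 17.9 to 73.5 in ex vivo CLP, and that of Ighm 369.2 to 664.4 in cCLP and 427.3 to 686 in ex vivo CLP, so Ighv1-77 stayed below Ighm in all libraries.

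In the comparison of the 8 libraries as labelled, 4 members passed the filter, which asked for a scaled value of at least 10 in at least 4 libraries, and 0 of them were called at an adjusted p under 0.05. The background was the same, with 0% of 6486 genes called by limma in either direction, although 477 genes, Ighv1-77 among them, had an unadjusted p under 0.05. Besides Ighm and Ighv1-77 these members were Ighv1-56, with a log2 difference of 1.82 ± 0.85 (SE, adjusted p = 0.484 by limma), and Ighv1-69, with 1.48 ± 1.39 (adjusted p = 0.563). The groups overlapped for all 4, whereas 1.87% of all genes tested had every cCLP library above every ex vivo CLP library and 1.62% had every one below.

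In the comparison of cCLP 2 to 4 with ex vivo CLP 1, 3 and 4, 6 members passed the filter and 5 of them, all V genes of the distal set, were called higher in cCLP, with 0 lower. By the same rule 20.9% of the 6573 genes tested were higher and 22.2% lower, so 43.1% of all genes were called. For 4 of the 5 V genes the direction was set by the filter, because they were below 10 in every ex vivo CLP library and could pass only through cCLP. Ighv1-77 was the exception, and the count is therefore no evidence about the locus as a whole.

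Ighv1-74 (chr12:115802648-115803080) had the smallest SD of these among cCLP 2 to 4. Its deposited values were 0, 23, 26 and 28 in cCLP 1 to 4 and 1, 9, 1 and 1 in ex vivo CLP 1 to 4. It was thus listed at 0 in cCLP 1 and above its group in ex vivo CLP 2, and the groups as labelled overlapped. Over the 6 libraries the scaled means were 24.32 ± 0.6095 in cCLP and 1.063 ± 0.2913 in ex vivo CLP (SD, n = 3 each), a log2 difference of 3.63 ± 0.16 (SE, adjusted p = 1.17e-06 by limma).

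Ighv1-56 (chr12:115242802-115243235) was at 3, 21, 28 and 32 in cCLP and at 3, 15, 1 and 2 in ex vivo CLP. Ighv1-69 (chr12:115623161-115623595) was at 0, 11, 14 and 17 in cCLP and at 1, 10, 0 and 1 in ex vivo CLP. Ighv1-63 (chr12:115495625-115496058) was at 0, 18, 28 and 15 in cCLP and at 0, 2, 1 and 0 in ex vivo CLP. For all 3 genes cCLP 2 to 4 stood above ex vivo CLP 1, 3 and 4, and cCLP 1 lay within the range of ex vivo CLP. Ex vivo CLP 2 approached cCLP 2 for Ighv1-69, lay below it for Ighv1-56 and was far below it for Ighv1-63. The log2 differences over the 6 libraries were 3.16 ± 0.27 for Ighv1-56 (SE, adjusted p = 5.23e-05), 3.17 ± 0.29 for Ighv1-69 (7.72e-05) and 3.91 ± 0.38 for Ighv1-63 (0.000105), all by limma. On the scale of log2(value + 1) the differences of genes this close to 0 understate the ratio of the values.

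**Figure D4:**
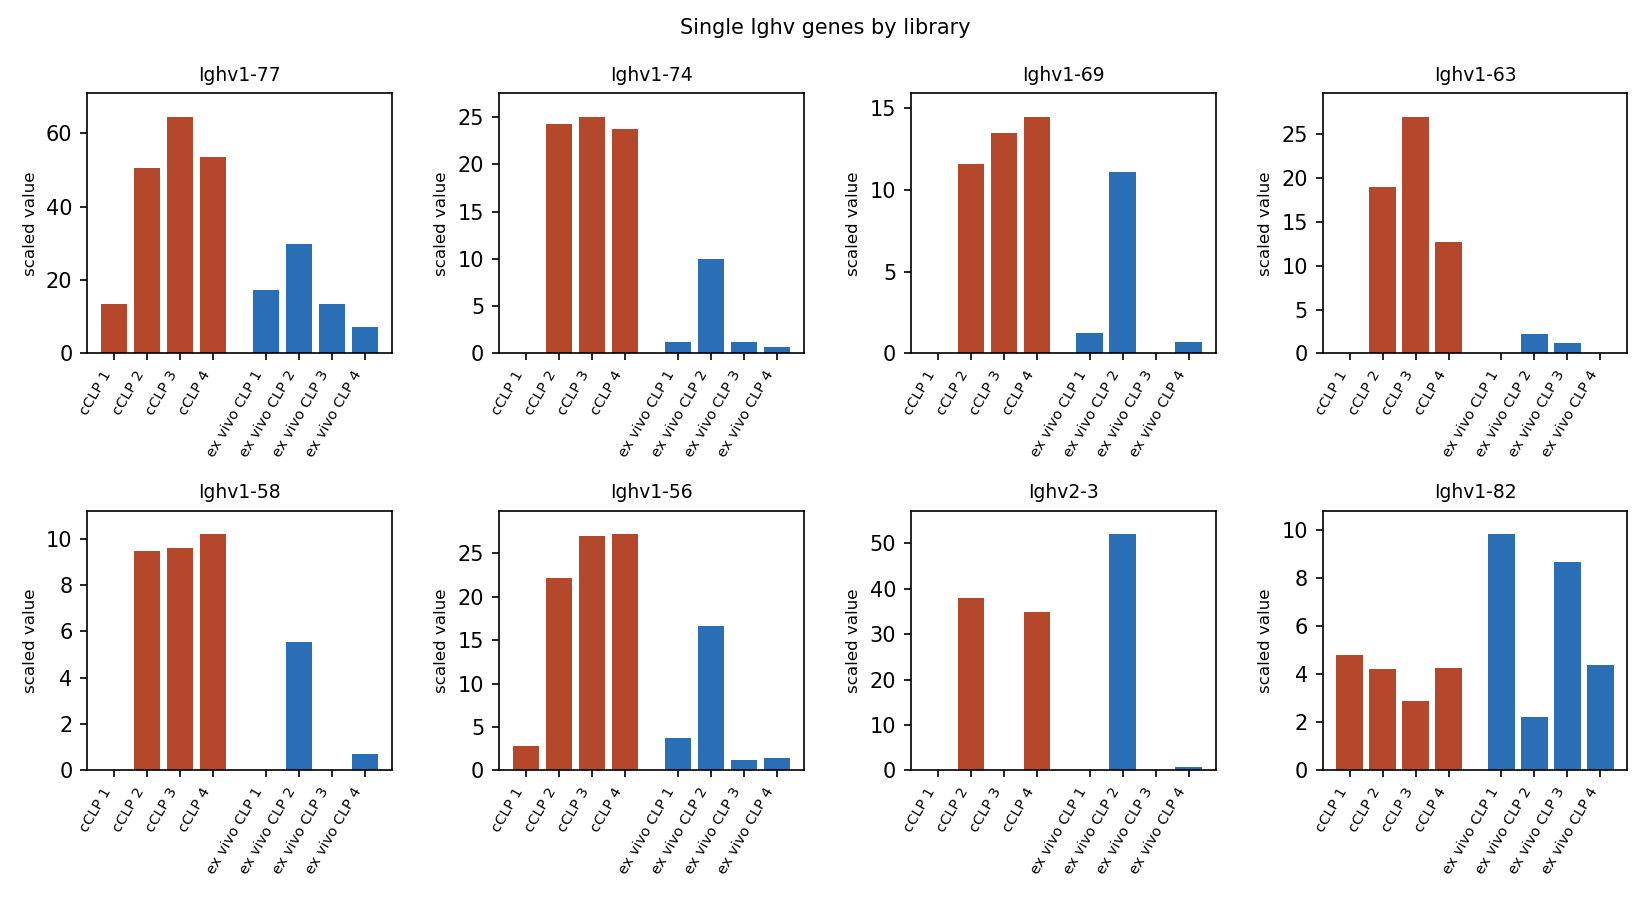
Scaled values by library of 8 V genes, with cCLP to the left of ex vivo CLP and 1 bar per library. Ighv1-77, Ighv1-74, Ighv1-69, Ighv1-63, Ighv1-58 and Ighv1-56 are higher in cCLP 2 to 4 than in ex vivo CLP 1, 3 and 4, Ighv2-3 is high in cCLP 2, cCLP 4 and ex vivo CLP 2 only, and Ighv1-82 is low in all 8 libraries.

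The other distal genes that reached 5 mostly showed the same order of libraries at lower values. Ighv1-58 was at 0, 9, 10 and 12 in cCLP 1 to 4 and at 0, 5, 0 and 1 in ex vivo CLP 1 to 4. Ighv1-76 was at 1, 11, 9 and 13 in cCLP and at 3, 7, 1 and 3 in ex vivo CLP. Ighv1-66 was at 0, 5, 11 and 7 in cCLP and at 1, 2, 0 and 1 in ex vivo CLP. In each of these the lowest of cCLP 2 to 4 was above the highest of ex vivo CLP 1, 3 and 4. Ighv1-75 was at 3, 4, 9 and 9 in cCLP and at 3, 4, 1 and 1 in ex vivo CLP. Ighv1-78 was at 0, 6, 4 and 10 in cCLP and at 1, 4, 0 and 0 in ex vivo CLP, and Ighv1-50 at 0, 5, 5 and 6 in cCLP and at 0, 3, 1 and 0 in ex vivo CLP. In these 3 genes, too, the lowest of cCLP 2 to 4 was above the highest of ex vivo CLP 1, 3 and 4, by 1 to 4 units of the score.

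Not all distal genes took this order. Ighv1-82, which lies 2522.7 kb upstream of Ighj1 and so beyond Ighv1-77, was at 5, 4, 3 and 5 in cCLP 1 to 4 and at 8, 2, 7 and 6 in ex vivo CLP 1 to 4. On these deposited scores ex vivo CLP 1, 3 and 4 were the highest libraries. After scaling, ex vivo CLP 4 was at 4.36, below cCLP 1 at 4.78 and little above cCLP 4 at 4.24. Ighv1-80, which lies between Ighv1-77 and Ighv1-82, was at 1, 2, 2 and 3 in cCLP and at 0, 2, 4 and 5 in ex vivo CLP, and its groups overlapped. Ighv1-82 was the single distal gene with all of cCLP 2 to 4 below all of ex vivo CLP 1, 3 and 4. Fitted without the filter, its log2 difference over the 6 libraries was -0.8 with an adjusted p of 0.0513 by limma.

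Over the 6 libraries 56 of the 108 V genes were above 0, and only such genes can have groups that do not overlap. Of these 56, 21 had every cCLP value above every ex vivo CLP value and 2 had every value below. Of the 21, 17 were distal, 3 were middle and 1 was proximal, and 20 belonged to the Ighv1 family. Among all 13755 genes above 0 in these libraries, 23% had groups that did not overlap with cCLP higher and 26.1% with cCLP lower. Fitted without a filter, 21 of the 60 members above 0 were called higher in cCLP and 1 lower, against 16.3% and 20.1% of all genes, with a median log2 difference of 0.62 over the 60 members and of -0.04 over all genes (limma). The gene called lower was Ighv5-17, which did not exceed 2 in any library. Over the 8 libraries as labelled, 0 V genes had groups that did not overlap, against 1.69% of 13861 genes with cCLP higher and 1.53% with cCLP lower. V genes above 0 in all 3 cCLP libraries numbered 27, of which 23 were distal, and those above 0 in all 3 ex vivo CLP libraries numbered 7, of which 6 were distal.

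A few V genes split the cCLP libraries among themselves. Ighv2-3 (chr12:113611187-113611617), a proximal gene 181.4 kb upstream of Ighj1, was at 0, 36, 0 and 41 in cCLP 1 to 4 and at 0, 47, 0 and 1 in ex vivo CLP 1 to 4. It was thus the first or second highest V gene in cCLP 2, cCLP 4 and ex vivo CLP 2 and listed at 0 in cCLP 3, while Ighv1-77 was present in all of them. Igkv14-111, a kappa light chain V gene on chromosome 6, ordered the libraries in the same way, with 1, 46, 3 and 73 in cCLP and 2, 46, 3 and 3 in ex vivo CLP, and Igkv1-110 did so at 0, 3, 0 and 8 in cCLP and 0, 4, 0 and 0 in ex vivo CLP. In cCLP 3, by contrast, Ighv1-4, of the middle set, was at 7 against 0 in cCLP 1, 2 and 4, and in ex vivo CLP it was at 0, 1, 0 and 0. Ighv5-2, a proximal gene, was at 0, 0, 9 and 3 in cCLP and at 0, 1, 0 and 0 in ex vivo CLP. Ighv2-2, its neighbour, was at 0, 6, 11 and 5 in cCLP and at 0, 7, 0 and 0 in ex vivo CLP, and so did not split cCLP 2 to 4. Only 60.4% of the read-length windows of Ighv2-2 occur in no other gene. Ighv6-3, of the middle set, was at 0 in all cCLP libraries and at 0, 0, 1 and 5 in ex vivo CLP.

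The 42 V genes above 0 that stayed under 5 were at 0 in cCLP 1 without exception and at most 1 in ex vivo CLP 1. They reached at most 2 in cCLP 2, 4 in cCLP 3 and cCLP 4, 4 in ex vivo CLP 2, 3 in ex vivo CLP 3 and 4 in ex vivo CLP 4. At such values a step of 1 is the smallest the rounded scores can show.

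Genes of the V(D)J recombination machinery changed in both directions over the 6 libraries. Of 15 listed, 9 were tested, 4 were higher in cCLP and 2 lower, against the 20.9% and 22.2% of all genes, with a median log2 difference of -0.01 against 0.01 over all genes. Rag1, which encodes the recombinase subunit that cuts DNA, was at 3, 276, 281 and 391 in cCLP 1 to 4 and at 7, 353, 1 and 2 in ex vivo CLP 1 to 4. Rag2, its partner, was at 8, 72, 79 and 104 in cCLP and at 17, 88, 4 and 5 in ex vivo CLP. Both were high in cCLP 2 to 4 and in ex vivo CLP 2, as the V sum was, and low in the other 4 libraries. Over the 6 libraries the log2 difference was 6.31 ± 0.52 for Rag1 (SE, adjusted p = 9.95e-05), whose direction the filter set, and 3.26 ± 0.53 for Rag2 (adjusted p = 0.00273), both by limma.

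Dntt, which encodes the terminal transferase that adds bases at the joints, ran the other way, at 1399, 82, 266 and 132 in cCLP and at 1874, 181, 867 and 1205 in ex vivo CLP. It was low in cCLP 2 to 4 and in ex vivo CLP 2, and its log2 difference over the 6 libraries was -3.25 ± 0.48 (SE, adjusted p = 0.00157 by limma). Hmgb1, whose product helps RAG bind its target sites, was also lower, by a log2 difference of -0.75 ± 0.11 (adjusted p = 0.000887). Xrcc5 and Xrcc6, which encode the Ku subunits that hold broken ends for joining, were higher by 1.15 ± 0.15 (adjusted p = 0.00062) and 1.03 ± 0.2 (adjusted p = 0.0046) on the log2 scale by limma. Over the 8 libraries as labelled 0 of the 9 were called, and 0 had an unadjusted p under 0.05.

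Of 29 listed regulators of the locus, 20 were tested over the 6 libraries, of which 4 were higher in cCLP and 5 lower, with a median log2 difference of -0.08. These shares were close to the background of 20.9% higher and 22.2% lower among all genes. The higher ones were Foxp1, at 0.88 ± 0.11 (SE, adjusted p = 0.000418), and Myb, at 0.87 ± 0.14 (adjusted p = 0.00148), both transcription factors of early lymphoid cells, with Ets1, a further one, and Wapl, which releases cohesin from chromatin. The lower ones were Irf8, Spi1, Runx1, Cbfb and Stat5a, with a log2 difference of -4.63 ± 0.16 for Irf8 (adjusted p = 5.71e-07 by limma). Irf8, Runx1 and Stat5a were below 10 in every one of cCLP 2 to 4, so the filter set their direction. Ebf1, which directs B cell commitment, did not pass the filter, with 1, 7, 6 and 9 in cCLP and 1, 8, 0 and 0 in ex vivo CLP. Pax5, which maintains that commitment and is needed for recombination of distal V genes, was at 0, 1, 1 and 2 in cCLP and at 0, 2, 0 and 0 in ex vivo CLP. Ebf1 was higher in cCLP 2 to 4 and ex vivo CLP 2 than in the other 4 libraries, at single-digit values, and Pax5 did not exceed 2. Over the 8 libraries 0 of the 20 were called, and 0 had an unadjusted p under 0.05.

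Of 9 listed partners of the heavy chain in the pre-B cell receptor, 3 were tested over the 6 libraries, 1 was higher in cCLP and 1 lower, against 20.9% and 22.2% of all genes, and over the 8 libraries 0 were called. The higher one was Syk, a kinase of receptor signalling, with a log2 difference of 0.44 ± 0.11 (SE, adjusted p = 0.0111 by limma). Cd79b, which encodes a signalling chain of the receptor, was the lower one, at 35, 1, 2 and 4 in cCLP and at 32, 7, 30 and 43 in ex vivo CLP, and the filter set its direction, since cCLP 2 to 4 were all below 10. Cd79a, its partner, was at 0, 7, 7 and 16 in cCLP and at 1, 27, 1 and 1 in ex vivo CLP, and so took the opposite order of libraries. The surrogate light chain genes Igll1 and Vpreb1 did not exceed 2 in any library.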

How the data were processed

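RNA from sorted C57BL/6 bone marrow cells (100 ng of total RNA per library, ribosomal RNA depleted, stranded, paired 75-base reads) was measured in 8 libraries, 4 per group, per the labels' protocols. The authors deposited 1 score per Ensembl gene and library, and the submitters' processing notes name TopHat2, Bowtie2, HTSeq 1.0.6 and GRCm38 (mm10) without roles. The deposited values are whole numbers but not read counts: their dispersion index over genes, which counts put at 1, was 0.262 between cCLP 3 and 4 (6573 genes) and 0.536 between ex vivo CLP 3 and 4 (6633 genes). They were therefore treated as a score of unstated scale, with no counting interval; whether they were divided by gene length is not given in the sources used here. No libraries were identical in content.

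Symbols, positions, exon lengths and sequences were taken from GENCODE vM21 (GRCm38), which holds 37607 of the 39179 IDs. Scores were scaled by trimmed means of log ratios (30% of ratios and 5% of levels trimmed), and log2(scaled value + 1) was fitted with limma 3.58.1 in R 4.3.3 (trend and robust empirical Bayes, two-sided, Benjamini-Hochberg over all genes tested). Genes entered with a scaled value of at least 10 in a number of libraries equal to the smaller group. Calls had an adjusted p under 0.05. NumPy 2.4.6 and pandas 2.3.3 under Python 3.11.15 did the rest. The fit was tested on simulated data.

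The members, gene lists and tests were chosen with earlier results of these data known. Named were all constant and J genes and every other member with a score of at least 5 in some library; others appear as counts or as exceptions named after their values were seen. Alternatives covered scaling, pseudocount (0.5 and 5), filter, the empirical Bayes options, a replicate block and leaving out each library.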

Additional observations from a re-analysis of the deposited data

Results flagged for a closer look

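In 15 of 46 groups of 4 libraries examined, the highest or lowest library was separated from the nearest other by more of the group's range than the 95% limit of Dixon's test for 4 values. For continuous, normally distributed values chance would flag about 1 in 20 groups, but that rate does not hold for small whole scores. A group with 1 library above 0 and the others at 0 is always flagged, as with Igha in cCLP, at 0.96 against 0. Genes of 1 library are also not independent. The number flagged therefore cannot be compared with a chance rate and is a description. All values here are scaled values.

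The library labelled cCLP 1 was the lowest of its group for the summed V genes, at 25.82 against 241.12 to 273.78 in cCLP 2 to 4. It was at 0.0 for Ighv1-50, against 4.8 to 5.26 in cCLP 2 to 4. For Ighv1-58 it was at 0.0, against 9.48 to 10.19, and for Ighv1-74 at 0.0, against 23.77 to 24.98. It was the only cCLP library with any Igha, at 0.96.

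The library labelled ex vivo CLP 2 was the highest of its group for the summed V genes, at 199.04 against 37.78 to 59.34 in ex vivo CLP 1, 3 and 4. It stood apart in the same direction for 8 V genes. Ighv2-3 was at 51.97 in it against at most 0.73 in the others, Ighv1-56 at 16.59 against 1.24 to 3.68, and Ighv1-69 at 11.06 against at most 1.23. Ighv1-74 was at 9.95 against 0.73 to 1.24, Ighv2-2 at 7.74 against 0, and Ighv1-58 at 5.53 against at most 0.73. Ighv5-2 and Ighv1-4 were each at 1.11 in it and at 0 in the others, which is a score of 1.

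Ighv1-4 was at 6.72 in cCLP 3 and at 0 in the other 3 cCLP libraries.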

How the results depend on the processing

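The sign of the small Ighm difference over the 8 libraries depended on single libraries: it was 0.07 on the log2 scale when ex vivo CLP 2 was left out (adjusted p = 0.812) and 0.073 when cCLP 1 was left out (adjusted p = 0.808), against -0.07 with all (limma). Leaving out 1 library at a time gave -0.21 to 0.07 over the 8 libraries and 0.06 to 0.33 over the 6. Members called over the 6 libraries numbered 22 with no filter on low values and 8 with a filter at 5, against 5, and 5 to 7 when 1 library was left out. Over the 8 libraries 0 were called under all 16 alternatives, leaving out any 1 library included (0 to 0). The mean number of V genes above 0 was 6 higher in cCLP. That difference became 11.4 when ex vivo CLP 2 was dropped, 13.6 when cCLP 1 was and 19 when both were. Dropping cCLP 3, ex vivo CLP 1 or cCLP 4 lowered it to 2.25, 2.75 or 2.92, and its range over single libraries and both together was 2.25 to 19. The difference in summed V scaled value, 115.4 in favour of cCLP, became 173.9 when cCLP 1 was dropped and 211.6 when both were, within a range of 91.28 to 211.6 and with 133.5 on the unscaled scores. The V genes named as called kept their direction and call under all 14 alternatives of the 6-library comparison. For Ighv1-74, Ighv1-69, Ighv1-63 and Ighv1-56 the filter set the direction, so alternatives that kept a filter were no test of it. The log2 difference of Ighv1-77 stayed between 1.8 and 2.37 when 1 library was left out, and those of Ighv1-74, Ighv1-69, Ighv1-56 and Ighv1-63 between 2.85 and 4.3. With the replicate number as a block, 0 members were called over the 8 libraries and 5 over the 6. Deviations of same-numbered libraries from their group means correlated at 0.595, 0.843, -0.575 and -0.86. Those means include cCLP 1 and ex vivo CLP 2, which lay with the other group, and this alone can set the signs. The correlations therefore cannot show whether the numbers pair libraries. The cause of these changes was not tested, beyond the fewer or further genes that another filter admits. The unknown depth and the rounding to whole scores limit what can be said of V genes with values of a few units.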

Other observations

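Genes beside the heavy chain locus were read in the same libraries. On the side of the constant genes, Tmem121, at 65.3 kb from the members, was at 6, 48, 55 and 66 in cCLP 1 to 4 and at 6, 51, 3 and 6 in ex vivo CLP 1 to 4. Tedc1, at 88.8 kb, was at 23, 50, 43 and 58 in cCLP and at 19, 46, 15 and 28 in ex vivo CLP. Crip1, at 101 kb, which encodes a small LIM domain protein, was at 258, 989, 1256 and 1676 in cCLP and at 266, 1643, 257 and 382 in ex vivo CLP. All 3 were higher in cCLP 2 to 4 and in ex vivo CLP 2 than in the other 4 libraries. Over cCLP 2 to 4 and ex vivo CLP 1, 3 and 4 the log2 differences were 3.18 ± 0.2 for Tmem121 (SE, adjusted p = 8.25e-06), which was below 10 in these ex vivo CLP libraries so that the filter set its direction, 1.16 ± 0.13 for Tedc1 (adjusted p = 0.000204) and 1.98 ± 0.15 for Crip1 (adjusted p = 2.24e-05), by limma. Among all genes tested in that comparison 20.9% were called higher in cCLP.

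On the side of the distal V genes, Zfp386, at 47.3 kb, was at 12, 11, 13 and 17 in cCLP and at 12, 12, 10 and 14 in ex vivo CLP, with a log2 difference of 0.05 ± 0.15 over the 6 libraries (SE, adjusted p = 0.798 by limma). Vipr2, at 77.3 kb, was at 2, 0, 0 and 0 in cCLP and at 1, 0, 1 and 2 in ex vivo CLP. Wdr60, at 205.8 kb, was at 3, 5, 5 and 5 in cCLP and at 3, 4, 1 and 3 in ex vivo CLP. At single-digit values Wdr60 thus took the order of Tmem121, Tedc1 and Crip1, and Vipr2 the opposite one. Neither Vipr2 nor Wdr60 was tested. Adam6a and Adam6b, which lie inside the span, were listed at 0 in all 8 libraries.

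At each other antigen receptor locus counted, fewer genes were above 0 than among the 108 heavy chain V genes in every library. The loci differ in the number of genes listed, so these counts are not shares. Of 109 kappa genes 2, 3, 1 and 2 were above 0 in cCLP 1 to 4 and 4, 2, 12 and 16 in ex vivo CLP 1 to 4, and their scores summed to 3, 50, 3 and 81 in cCLP and to 6, 50, 46 and 76 in ex vivo CLP. The kappa sum of 76 in ex vivo CLP 4 included the constant gene Igkc at 37. Its kappa V genes alone summed to 39, below its heavy chain V genes at 52. Of 40 T cell receptor beta genes 2, 0, 1 and 0 were above 0 in cCLP and 6, 0, 7 and 6 in ex vivo CLP. In ex vivo CLP 1 that is 6 of 40, against 13 of 108 heavy chain V genes, so the beta share was not the lower one there. Of 4 lambda genes 0 were above 0 in every cCLP library and 1, 0, 1 and 2 in ex vivo CLP. Of 12 gamma genes at most 1 was above 0 in any library, and of 172 alpha and delta genes at most 3. The heavy chain V genes, with 31 to 40 above 0 in cCLP 2 to 4, were the receptor genes most often above 0 in those libraries among the loci counted.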
